A study of Mus musculus with 36 samples.

Results

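Leukocyte integrins and adhesion molecules were followed here as 10 genes, found by exact match of their symbols among the 19879 genes of the deposited tables. They were Icam1, Vcam1, Selplg, Cd44 and the integrin subunit genes Itgam, Itgal, Itgax, Itgb2, Itga4 and Itga5. All 10 were listed, 9 passed the filter on low counts in every comparison, and Vcam1 passed it in none. Gene expression was measured by RNA-seq in the mouse microglial cell line BV-2, which is immortalised, with 36 libraries in 12 groups of 3. At each of 4 h and 24 h the groups were DMSO, EtOH, LPS, LPS with DMF, LPS with MMF and LPS with CBD. DMSO and ethanol (EtOH) are the solvents of the fumarates and of cannabidiol (CBD), and the final vehicle was 0.2% in all treated wells. LPS (lipopolysaccharide from E. coli, 600 ng/ml) was given in low-serum medium, with 30 µM dimethyl fumarate (DMF), 30 µM monomethyl fumarate (MMF) or 6 µM CBD where named. No group received a drug without LPS. LPS was an aqueous stock, with water named beside DMSO and EtOH as a vehicle but not assigned to a group. LPS alone is therefore compared with both DMSO and EtOH. A difference between a drug group and LPS alone may include one of solvent, and this was not tested. The 3 libraries of a group are repeats of the experiment in 1 cell line, so the p-values measure the spread between repeats of that line only.

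Integrins are receptors made of an alpha and a beta chain that bind matrix proteins or counter-receptors on other cells after being switched on from inside the cell. On leukocytes and microglia the shared beta chain CD18 (Itgb2) pairs with CD11a (Itgal), CD11b (Itgam) or CD11c (Itgax), and ICAM-1 (Icam1) is a counter-receptor for several of these pairs. The alpha chains of Itga4 and Itga5 pair with the beta chain of Itgb1, and bind VCAM-1 and fibronectin respectively. CD44 binds hyaluronan, and PSGL-1 (Selplg) is a ligand of the selectins that slows leukocytes on vessel walls.

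The libraries held 14110424 to 26676607 reads assigned to genes (median 16230584). Markers of macrophages were present: Csf1r ranged from 282 to 902 CPM (a gene's reads scaled to the total of its library) over the 36 libraries and Cd68 from 266 to 753. Of 18 listed microglial and macrophage genes 9 were above 1 CPM in every library, while P2ry12 stayed at or below 6.13 CPM, Siglech at or below 0.134, and Fcrls and Sall1 were at 0. Summed markers were 1141 to 2176 CPM for that list, 0.331 to 1.80 for astrocytes, 0 to 0.669 for T cells, 0.392 to 1.42 for B cells, 0.567 to 3.51 for neutrophils and 0 to 0.941 for fibroblasts. The sums for neurons (4.74 to 21.1 CPM), oligodendrocytes (45 to 94.5) and endothelial cells (12.9 to 176.8) came mostly from 1 gene each: Map2, Mbp and Vwf. The endothelial sum was 107 to 176.8 CPM with CBD at 24 h against 15.1 to 28.7 in LPS, and the macrophage sum was 1241 to 1434 with DMF at 4 h against 1678 to 1908 in LPS. At 24 h the macrophage sum was 1519 to 2045 in LPS, 1141 to 1497 in DMSO and 1270 to 1435 in EtOH. The part of these shifts in the results on the adhesion genes was not tested. The libraries numbered 2 in the LPS groups and 5 in the vehicle groups stood apart for several members. At 4 h these were the highest of their group in 6 of 6 groups for Itgam, Itgal, Itga5 and Cd44, and in 0 of 6 for Selplg. Calls that changed when 1 library was left out are given with that library.

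Of the 10 genes, 6 had an entry in the RefSeq promoter table (build GRCm38.p6), and Vcam1, Itgal, Itgb2 and Selplg had none. The 250 bases before the start of Icam1, Itga4, Itga5 and Itgax are printed, as those of the 6 with the largest differences from a vehicle or from LPS below. Capitals mark matches, on either strand, to a kappaB motif (GGNNNTTCC), an AP-1 motif (TGANTCA), a GAS motif (TTCNNNGAA), an antioxidant response core (TGACNNNGC), a PU.1 motif (GAGGAA) or an Sp1 motif (GGGCGG).
Icam1 (chr9:21015690-21015939, plus strand): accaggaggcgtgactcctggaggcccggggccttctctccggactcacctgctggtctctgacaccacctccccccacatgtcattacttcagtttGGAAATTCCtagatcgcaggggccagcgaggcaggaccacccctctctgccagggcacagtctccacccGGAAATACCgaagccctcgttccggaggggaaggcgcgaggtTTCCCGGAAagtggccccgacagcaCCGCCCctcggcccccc
Itga5 (chr15:103366792-103367041, minus strand): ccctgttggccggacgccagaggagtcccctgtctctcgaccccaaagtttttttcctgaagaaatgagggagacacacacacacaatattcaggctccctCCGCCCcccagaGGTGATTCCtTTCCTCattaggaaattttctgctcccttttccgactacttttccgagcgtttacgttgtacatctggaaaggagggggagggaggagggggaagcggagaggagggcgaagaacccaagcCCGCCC
Itga4 (chr2:79255176-79255425, plus strand): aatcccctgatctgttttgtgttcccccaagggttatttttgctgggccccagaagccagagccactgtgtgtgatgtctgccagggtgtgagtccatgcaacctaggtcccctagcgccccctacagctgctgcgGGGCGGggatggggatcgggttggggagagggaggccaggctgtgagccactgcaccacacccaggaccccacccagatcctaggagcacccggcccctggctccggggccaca
Itgax (chr7:128129300-128129549, plus strand): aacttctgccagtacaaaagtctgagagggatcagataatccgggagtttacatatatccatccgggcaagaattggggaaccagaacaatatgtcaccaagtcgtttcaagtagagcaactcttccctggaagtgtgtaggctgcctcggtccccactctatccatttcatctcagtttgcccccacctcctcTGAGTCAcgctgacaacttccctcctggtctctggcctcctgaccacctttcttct

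Positions are counted back from the base before the start, at -1. The Icam1 window held 2 kappaB matches, at -153 to -145 and at -84 to -76, 1 GAS match at -42 to -34 and 1 Sp1 match. Itga5 held 1 kappaB match at -137 to -129, 1 PU.1 match next to it at -127 to -122 and 2 Sp1 matches. Itga4 held 1 Sp1 match and none of the other motifs, and Itgax held 1 AP-1 match at -56 to -50. Of the windows not printed, Itgam held 2 PU.1 matches and 1 Sp1 match, and Cd44 held 2 PU.1 matches. No window held the antioxidant response core. Over all 32851 windows of this length in the table, 15.7% held a kappaB match, 6.75% an AP-1, 7.02% a GAS, 10.2% an antioxidant response core, 23.3% a PU.1 and 32.7% an Sp1 match. These matches describe letters, and binding was not measured here.

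Vcam1, the endothelial counter-receptor of the alpha 4 integrin (Ensembl ENSMUSG00000027962, chr3:115903598-115923337, GRCm39), was close to absent. It had 3 reads in all 36 libraries together: 2 reads in 1 LPS with CBD library at 24 h and 1 read in 1 LPS with MMF library at 24 h. The other 10 groups had 0 reads, which allows up to 0.0682 CPM in the shallowest of them (DMSO at 24 h) and 0.0452 in the deepest (EtOH at 24 h), for counting error only. No fold change is given for it.

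The other 9 genes differed widely in level. Levels between genes are compared as RPKM, which is CPM divided by the summed exon length in kilobases (GENCODE, GRCm39), and normalized counts on 1 joint set of size factors are used within a gene. In DMSO at 4 h, Itgb2 was highest (62.3 ± 2.2 RPKM, SD, n = 3), followed by Cd44 (50.5 ± 8.2), Icam1 (32.2 ± 1.3) and Itga4 (22.4 ± 0.87). The libraries of these neighbours did not overlap, except that Itga4 overlapped Itga5 (18.5 ± 3.1) below it. Itgax (2.2 ± 0.23) and Selplg (2.19 ± 0.24) were lowest and could not be ordered. In LPS at 24 h, Itgb2 (105 ± 11) stood above Cd44 (49.3 ± 0.38) and Itga5 (46.1 ± 4.1), and Itgax (1.67 ± 0.24) was the lowest of the 9. Of the CD11 chains, Itgam ranged from 16.2 to 34.6 RPKM over the 12 group means, Itgal from 10.6 to 31.3 and Itgax from 1.67 to 3.41. Of the exon bases of Itgam, 3450 of 5118 are shared with a read-through gene on the same strand (Gm49368, 86 reads in all), and 3481 of 16732 of Itga4 lie opposite exons of Cerkl. How reads over shared bases were counted, and whether strand was used, is not stated, so the levels of these genes carry that doubt.

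**Figure D1:**
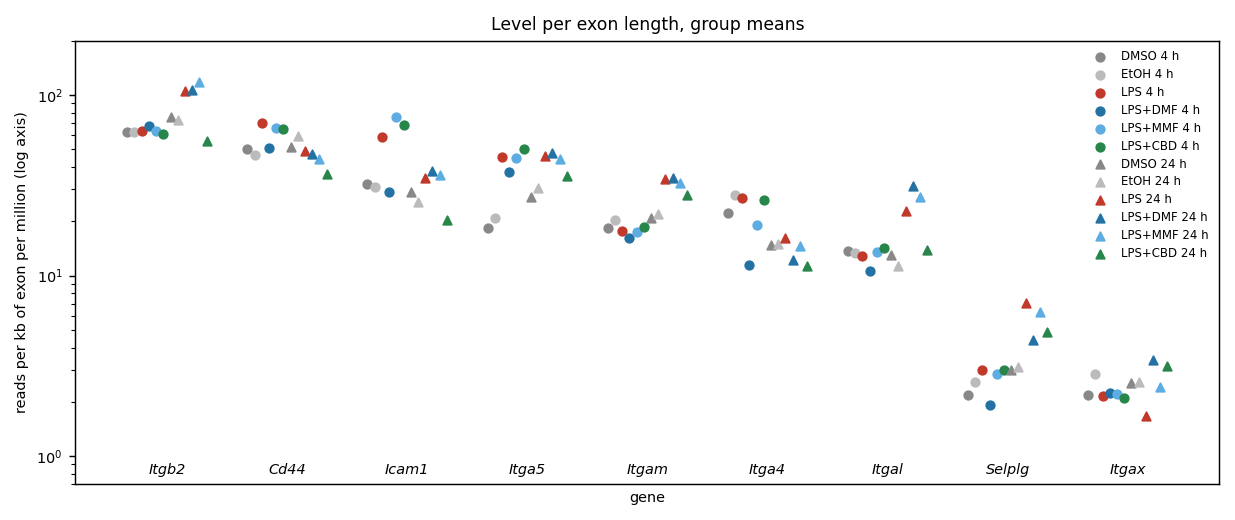
Group means of the level per exon length (RPKM, log axis) for 9 genes, with circles for 4 h and triangles for 24 h. Itgb2 lies between 55.6 and 118 and Itgax between 1.67 and 3.41 over the 12 groups.

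Few of these transcripts were called with LPS at 4 h and most of them at 24 h. When the times were tested against each other, 0 of 9 were called with a larger response at 24 h against DMSO. At an unadjusted p under 0.05, 8 of 9 passed against DMSO in either direction, as did 2963 of the 11491 genes tested. In that test edgeR called 4 of 9 and DESeq2 5 of 9. Some fits without 1 library called Itgam, Itgal or Itgb2 higher at 24 h, and some called Itgax lower. Against EtOH 4 of 9 were called with a larger response at 24 h. Each of these calls was lost without 8 to 10 of the 12 libraries, one at a time. Of all genes, 9.69% and 9.26% were called in those tests, in either direction. At 4 h, 3 of 9 genes were called (limma, Benjamini-Hochberg adjusted p under 0.05 over all genes tested) against DMSO and 3 of 9 against EtOH, namely Icam1, Itga5 and Cd44 in both, all higher. Of all genes tested, 14.1% were called against DMSO (7.70% higher) and 10.2% against EtOH (5.69% higher). At 24 h, 6 of 9 were called against DMSO, where 22.7% of all genes were called, and 7 of 9 against EtOH, where 20.5% were. Itgam, Itgal, Itgb2, Itga5 and Selplg were higher against both vehicles, Icam1 was higher against EtOH only, and Itgax was lower against both. The share of all genes called higher was 12.1% against DMSO and 10.8% against EtOH, and lower 10.6% and 9.72%. The median log2 difference of the 9 was 0.31 and 0.09 at 4 h, and 0.49 and 0.54 at 24 h, against DMSO and EtOH in that order, while medians over all genes tested lay between -0.015 and 0.0092 in every comparison. Both sets of comparisons use the same LPS libraries, so they are not independent of each other.

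The number of these genes called against LPS differed between the drugs, and so did the share of all genes called. With DMF, 2 of 9 were called against LPS at 4 h (Icam1 and Itga4, both lower), where 11.1% of all genes were called, and 4 of 9 at 24 h, where 25.1% were. With MMF, 0 of 9 were called by limma at 4 h and 0 of 9 at 24 h, where 0.122% and 0% of all genes were called. At an unadjusted p under 0.05, 2 of 9 passed for MMF at 4 h and 1 of 9 at 24 h, and edgeR and DESeq2 each called 0 of 9 at both times. With CBD, 0 of 9 were called at 4 h (0.00875% of all genes, 0 of 9 at an unadjusted p under 0.05, and 0 of 9 by edgeR and by DESeq2). At 24 h CBD gave 8 of 9, with 7 lower and Itgax higher, where 48.7% of all genes were called, 24.8% lower and 23.9% higher. The median difference of the 9 was -0.54 for CBD at 24 h, 0.02 for DMF at 24 h and -0.30 for DMF at 4 h. All drug comparisons at a time share the 3 LPS libraries. In total RNA from bulk cultures, fewer cells of a kind and less RNA per cell cannot be told apart.

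Libraries with the same number deviated together in several of these comparisons. For those, the fit with the number as a replicate block (paired fit) is given where it changed a count. For MMF at 4 h, where the lowest correlation of same-numbered libraries was 0.0836, the paired fit called 1 of 9. For DMF at 4 h the paired fit called 4 of 9, adding Cd44 (adjusted p = 0.0117) and Selplg (0.0498), with 15.1% of all genes called. Without the LPS with DMF library numbered 2, the fit without pairing also called 4 of 9. Cd44 (log2 difference -0.64, adjusted p = 0.0167) and Itga5 (-0.58, 0.0214) were then added to Icam1 and Itga4. For MMF at 24 h the paired fit called 2 of 9, Itgax (0.54, adjusted p = 0.012) and Itgal (0.25, 0.00872), both higher, with 1.78% of all genes called. For CBD at 24 h it called 9 of 9, adding Itgam (-0.33, adjusted p = 0.0139), with 56.7% called.

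**Figure D2:**
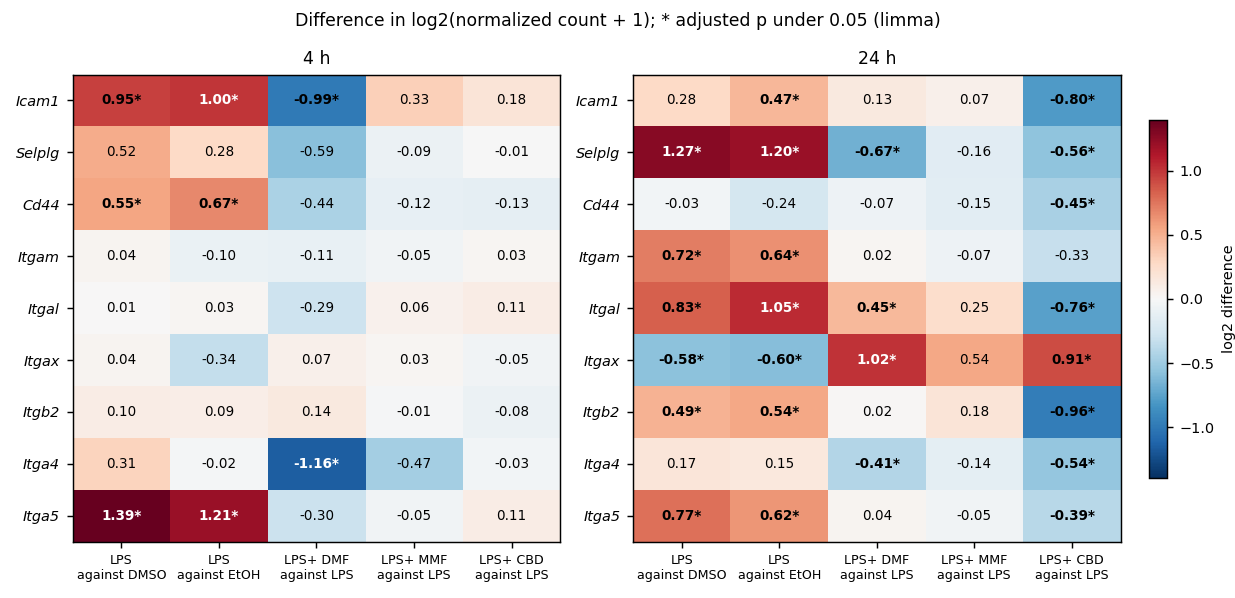
Difference in log2(normalized count + 1) of 9 genes in 5 comparisons at 4 h (left) and 24 h (right), with an asterisk for an adjusted p under 0.05 in limma. Itga5 at 4 h (1.39 against DMSO) and Selplg at 24 h (1.27) show the largest rises with LPS, and Itgax alone is lower with LPS and higher with both DMF and CBD at 24 h.

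Icam1 (ENSMUSG00000037405, chr9:20927281-20940113) rose early with LPS, and with DMF it stayed at the level of the vehicles at 4 h. At 4 h the normalized counts were 2499, 2677 and 2651 in DMSO, 2536, 2660 and 2410 in EtOH, and 4561, 5871 and 4849 in LPS. With DMF they were 2570, 2760 and 2364, with MMF 5701, 5677 and 7939, and with CBD 5399, 6035 and 5708. The DMF libraries overlapped those of both vehicles, and all 9 libraries of LPS, MMF and CBD lay above all 9 of the others. LPS raised Icam1 1.93-fold over DMSO (log2 0.95, SE 0.10, adjusted p = 0.000661) and 2.00-fold over EtOH (1.0, SE 0.10, 0.000709). Icam1 was lower with DMF than with LPS alone (log2 difference -0.99, SE 0.11, adjusted p = 0.000873), and against DMSO the difference of LPS with DMF was -0.03 (95% interval -0.22 to 0.16). For MMF the difference from LPS was 0.33 (95% interval 0.02 to 0.65, adjusted p = 0.667) and for CBD 0.18 (-0.04 to 0.40).

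The order of Icam1 had changed by 24 h. Counts were 2943, 2903 and 2908 in LPS, 2038, 2519 and 2799 in DMSO, and 1926, 2140 and 2314 in EtOH. With DMF they were 3051, 3324 and 3232, with MMF 2832, 3293 and 3089, and with CBD 1705, 1935 and 1426. LPS lay above both vehicles without overlap, but was called against EtOH only (0.47, SE 0.08, adjusted p = 0.00179) and the difference from DMSO was 0.28 (95% interval 0.05 to 0.50, adjusted p = 0.0771). Without the DMSO library numbered 6 that difference was 0.38 and called (adjusted p = 0.0346). CBD lowered Icam1 against LPS (-0.80, SE 0.11, adjusted p = 0.000282), to levels that overlapped those of EtOH. Against EtOH the difference of LPS with CBD was -0.33 (adjusted p = 0.0382), and this call was lost without the CBD library numbered 1 or 3, or the EtOH library numbered 5 or 6 (adjusted p = 0.0824 to 0.126). DMF and LPS did not differ beyond the threshold (0.13, 95% interval -0.01 to 0.28), although all 3 DMF libraries were above all 3 LPS libraries.

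Selplg (ENSMUSG00000048163, chr5:113956597-113970705), which encodes the selectin ligand PSGL-1, was called with LPS at 24 h and not at 4 h. The difference of its LPS response between the times was not called against DMSO. Against EtOH that difference was called (0.92), but the call was lost without 8 of the 12 libraries, one at a time. At 24 h the counts were 420, 586 and 537 in LPS, against 169, 218 and 261 in DMSO and 209, 186 and 282 in EtOH. LPS raised it 2.41-fold over DMSO (1.27, SE 0.17, adjusted p = 0.000319) and 2.30-fold over EtOH (1.2, SE 0.17, 0.000381). With DMF the counts were 312, 322 and 325, all below the LPS libraries (-0.67, SE 0.12, adjusted p = 0.00339) and all above those of the vehicles. With MMF they were 429, 507 and 439, which overlapped LPS. With CBD they were 338, 447 and 267, which overlapped LPS too (-0.56, SE 0.18, adjusted p = 0.0298). The CBD call was lost without the CBD library numbered 1 or 3 or the LPS library numbered 2 or 3 (adjusted p = 0.0709 to 0.0977). At 4 h the counts were 137, 152 and 169 in DMSO, 180, 213 and 275 in LPS and 154, 148 and 137 with DMF. LPS against DMSO then gave 0.52 (95% interval 0.14 to 0.90, adjusted p = 0.0757), and DMF against LPS -0.59 (-0.97 to -0.21, 0.0576). EtOH at 4 h (180, 159 and 208) overlapped LPS, with a difference of 0.28 (-0.12 to 0.67, 0.368). Without the LPS library numbered 1 the differences of LPS from DMSO and of DMF from LPS were called (0.66, adjusted p = 0.0408, and -0.73, 0.0385).

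Cd44 (ENSMUSG00000005087, chr2:102641486-102732010), the hyaluronan receptor, was raised by LPS at 4 h only. The counts at 4 h were 4730, 6536 and 5501 in DMSO, 4624, 6220 and 4660 in EtOH and 7287, 9651 and 7731 in LPS, with no overlap between LPS and the vehicles. LPS gave 0.55 over DMSO (SE 0.14, adjusted p = 0.0328) and 0.67 over EtOH (SE 0.14, 0.0213). The first call was lost without the DMSO library numbered 4 or 6 or the LPS library numbered 2 or 3 (adjusted p = 0.0508 to 0.117), and the second without the EtOH library numbered 4 or 6 or the LPS library numbered 3 (0.0631 to 0.0947). With DMF the counts were 4927, 7815 and 5657, spanning the range from the vehicles to LPS. At 24 h they were 5599, 5766 and 5645 in LPS, 5809, 5636 and 6139 in DMSO and 6247, 6295 and 7852 in EtOH, so that LPS no longer lay above the vehicles (-0.03 against DMSO, 95% interval -0.18 to 0.11, and -0.24 against EtOH, -0.45 to -0.04, adjusted p = 0.0893). With CBD at 24 h they were 4352, 4373 and 3734, below every other library at 24 h (-0.45 against LPS, SE 0.08, adjusted p = 0.00171, and -0.70 against EtOH, SE 0.11, 0.000458).

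**Figure D3:**
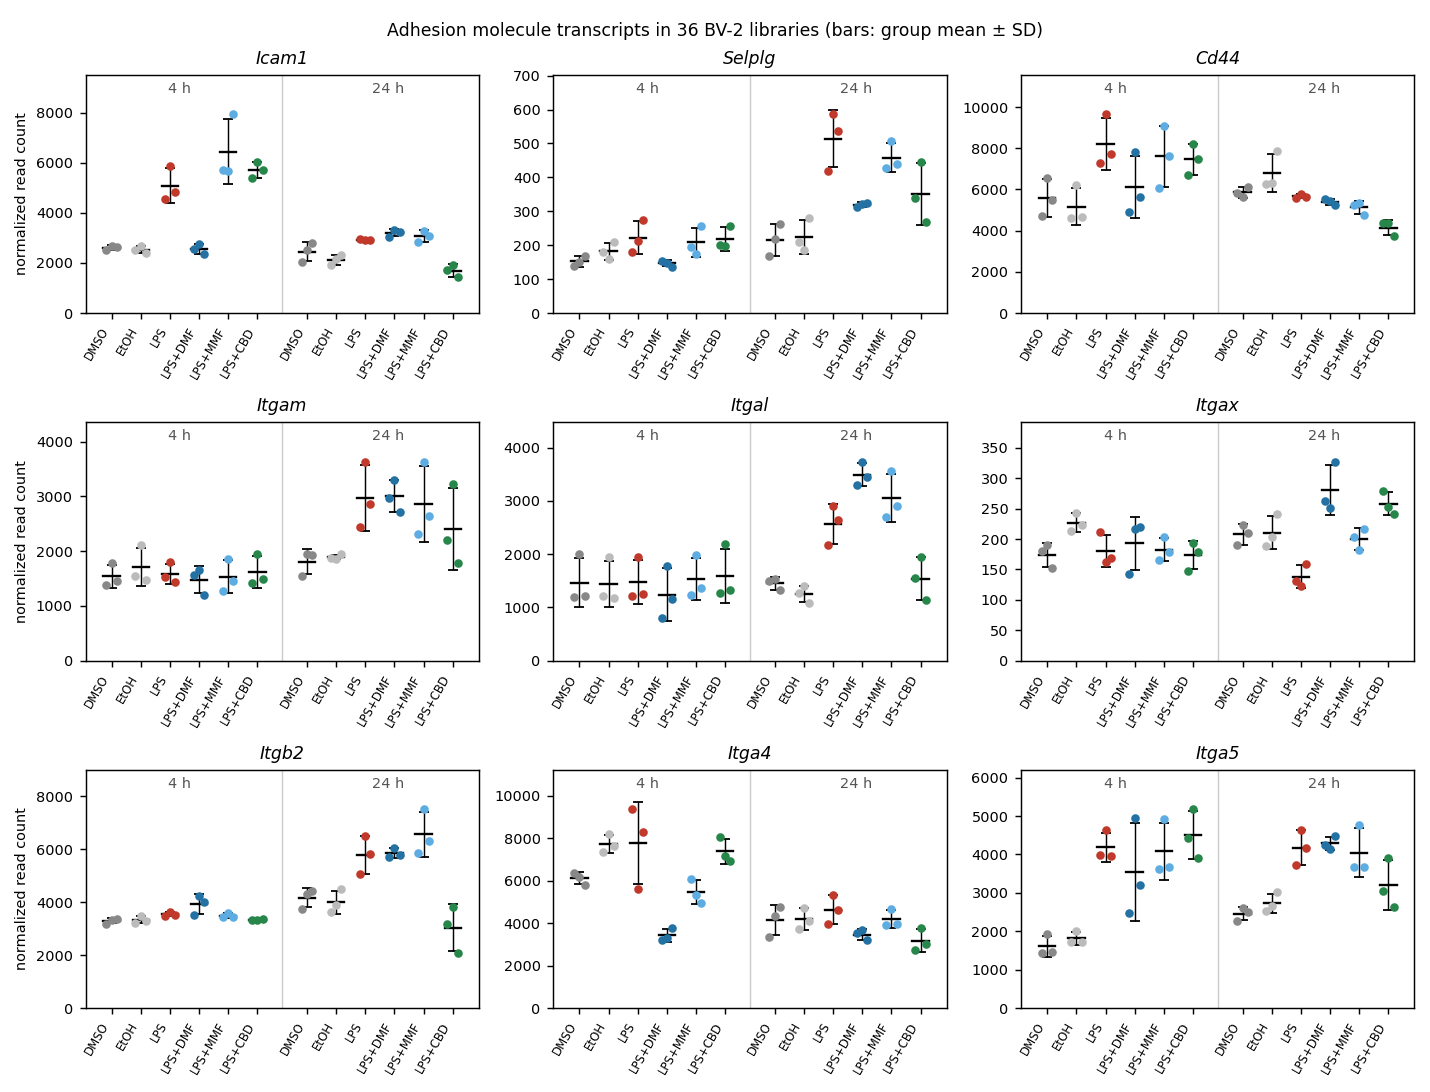
Normalized read counts of 9 genes in every library (points), with the group mean and SD (bars), for 6 treatments at 4 h and 24 h. Icam1 libraries with LPS and DMF at 4 h (2364 to 2760) lie with the vehicles, and Itgax libraries with LPS at 24 h (123 to 160) lie below all other groups at that time.

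The CD11a, CD11b and CD18 transcripts rose with LPS by 24 h and were not called at 4 h. Itgb2 (ENSMUSG00000000290, chr10:77366086-77401542), the shared beta chain, had counts of 5045, 6506 and 5804 in LPS at 24 h, against 3753, 4291 and 4437 in DMSO and 3629, 3879 and 4478 in EtOH. All LPS libraries were higher (0.49, SE 0.10, adjusted p = 0.00535 against DMSO, and 0.54, SE 0.11, 0.00396 against EtOH). With DMF the counts were 5691, 6048 and 5787, inside the LPS range (0.02, 95% interval -0.17 to 0.21). CBD gave 3193, 3824 and 2081, below every LPS library, with the library numbered 3 the lowest of all 36 (-0.96, SE 0.19, adjusted p = 0.0027). The CBD libraries at 24 h overlapped those of EtOH, and the difference from EtOH was -0.43 (95% interval -0.85 to -0.01, adjusted p = 0.0838). Without the CBD library numbered 2 it was -0.63 and called (adjusted p = 0.00666).

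Itgal (ENSMUSG00000030830, chr7:126895432-126934310), the alpha chain of LFA-1, showed the largest rise of the 3 CD11 genes. At 24 h the counts were 2162, 2899 and 2645 in LPS, 1488, 1539 and 1317 in DMSO and 1273, 1391 and 1084 in EtOH. LPS gave 0.83 over DMSO (SE 0.11, adjusted p = 0.000278) and 1.05 over EtOH (SE 0.12, 9.6e-05). With DMF the counts were 3295, 3731 and 3452, above every LPS library (0.45, SE 0.10, adjusted p = 0.00975), a call that was lost when all 36 libraries shared 1 fit (adjusted p = 0.191). MMF gave 2687, 3550 and 2893, which overlapped LPS (0.25, 95% interval -0.03 to 0.52). CBD gave 1542, 1940 and 1137, below every LPS library (-0.76, SE 0.18, adjusted p = 0.00621) and overlapping EtOH. At 4 h each group had 1 library well above its other 2, as in LPS (1219, 1944 and 1242) and DMSO (1192, 1995 and 1210). The high library was numbered 2 in LPS and 5 in DMSO. The difference of LPS from DMSO was 0.01 (95% interval -0.53 to 0.54). LPS groups and vehicles share no library numbers, so no fit of an LPS group against a vehicle had a replicate block. The samples are listed with vehicle libraries 4, 5 and 6 beside LPS libraries 1, 2 and 3. A match between them is not stated. Any spread shared in that order, as in the high libraries, was not removed from the intervals of LPS groups against vehicles.

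Itgam (ENSMUSG00000030786, chr7:127661812-127717663), the alpha chain of the complement receptor Mac-1, rose less. At 24 h the counts were 2438, 3626 and 2867 in LPS, 1538, 1955 and 1934 in DMSO and 1882, 1860 and 1938 in EtOH, without overlap. LPS gave 0.72 over DMSO (SE 0.14, adjusted p = 0.00338) and 0.64 over EtOH (SE 0.12, 0.0029). DMF (2977, 3301 and 2722), MMF (2308, 3630 and 2634) and CBD (2209, 3230 and 1780) all overlapped LPS. The difference from LPS was 0.02 for DMF (95% interval -0.26 to 0.30), -0.07 for MMF (-0.45 to 0.32) and -0.33 for CBD (-0.78 to 0.13). Without the CBD library numbered 2 the last was -0.56 and called (adjusted p = 0.0122).

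Itgax (ENSMUSG00000030789, chr7:127728719-127749829), which encodes CD11c and lies 11.1 kb from Itgam with no protein-coding gene between, went the other way. At 24 h it had 131, 123 and 160 counts in LPS, fewer than the 190, 224 and 210 in DMSO and the 188, 203 and 241 in EtOH. LPS gave -0.58 against DMSO (SE 0.14, adjusted p = 0.0116) and -0.60 against EtOH (SE 0.15, 0.0142). The first call was lost without the DMSO library numbered 5 (adjusted p = 0.0543) and the second without the EtOH library numbered 6 (0.0698). DMF gave 263, 251 and 327, about 2.02-fold above LPS (1.02, SE 0.14, adjusted p = 0.00123) and above all DMSO libraries (0.45, SE 0.12, 0.0161). The call of DMF against DMSO was lost without the DMSO library numbered 4 or the DMF library numbered 3 (adjusted p = 0.0518 to 0.0785). CBD gave 279, 254 and 242, above every LPS library (0.91, SE 0.14, adjusted p = 0.000544) and at the upper edge of EtOH (0.30, 95% interval 0.02 to 0.59, 0.0745). Without the EtOH library numbered 6 the latter was 0.41 and called (adjusted p = 0.0331). MMF gave 203, 181 and 217, also above every LPS library but not called (0.54, 95% interval 0.23 to 0.85, adjusted p = 0.983). At 4 h LPS (211, 162 and 169) overlapped DMSO (180, 190 and 153) and lay below every EtOH library (214, 244 and 224), where the difference was not called (-0.34, 95% interval -0.63 to -0.04, adjusted p = 0.151).

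Itga4 (ENSMUSG00000027009, chr2:79085770-79163467), the alpha chain of VLA-4, did not pass the threshold with LPS at either time and was lower with DMF than with LPS alone at both. At 4 h the counts were 9365, 5620 and 8297 in LPS, 6371, 6156 and 5813 in DMSO and 7360, 8187 and 7638 in EtOH. With DMF they were 3188, 3309 and 3772, below every other library at 4 h. DMF gave -1.16 against LPS (SE 0.17, adjusted p = 0.00287) and -0.85 against DMSO (SE 0.08, 0.000164). MMF gave 6092, 5344 and 4971 (-0.47 against LPS, 95% interval -0.84 to -0.10, adjusted p = 0.567). Every EtOH library lay above every DMSO library at 4 h, and the part of solvent in the differences from LPS was not tested. The LPS library numbered 2 was the lowest of its group. Without it LPS against DMSO was 0.52 and called (adjusted p = 0.00327), and MMF against LPS was -0.69 and called (0.0175). At 24 h the counts were 3959, 5328 and 4602 in LPS, 3549, 3662 and 3189 with DMF and 2725, 3772 and 3022 with CBD. DMF then gave -0.41 (SE 0.10, adjusted p = 0.0156), a call lost without the LPS or the DMF library numbered 3 (0.0592 and 0.0806). CBD gave -0.54 (SE 0.14, adjusted p = 0.00869).

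Itga5 (ENSMUSG00000000555, chr15:103252713-103275190), the alpha chain of the fibronectin receptor, rose most with LPS at 4 h. The counts were 1438, 1923 and 1451 in DMSO, 1718, 2019 and 1713 in EtOH and 3989, 4627 and 3958 in LPS. LPS raised it 2.62-fold over DMSO (1.39, SE 0.12, adjusted p = 0.000269) and 2.31-fold over EtOH (1.21, SE 0.09, 0.000222). With DMF the counts were 2472, 4958 and 3198, so that 1 library lay above all LPS libraries and the other 2 below them, yet all lay above DMSO (1.09, SE 0.22, adjusted p = 0.00743). The difference of DMF from LPS was -0.30 (95% interval -0.79 to 0.19), and -0.58 without the DMF library numbered 2. At 24 h the counts were 3721, 4632 and 4162 in LPS, 2272, 2614 and 2498 in DMSO and 2526, 2645 and 3012 in EtOH (0.77, SE 0.09, adjusted p = 0.000166 against DMSO, and 0.62, SE 0.10, 0.000916 against EtOH). CBD gave 3046, 3907 and 2638, overlapping both LPS and EtOH (-0.39 against LPS, SE 0.14, adjusted p = 0.0382). This call was lost without the CBD library numbered 1 or 3 or the LPS library numbered 2 or 3 (adjusted p = 0.0976 to 0.129), in edgeR (0.0516) and with all 36 libraries in 1 fit (0.0510).

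DMF and MMF, the dimethyl and monomethyl esters of fumaric acid, were given at the same 30 µM and compared as 1 pair at each time. At 4 h, 2 of 9 genes were called, where 8.34% of all genes were: Icam1 was lower with DMF (-1.32, SE 0.13, adjusted p = 0.000612) and so was Itga4 (-0.68, SE 0.10, 0.00406). Without the DMF library numbered 2 the count was 5 of 9, with Cd44 (-0.52, adjusted p = 0.0366), Itga5 (-0.53, 0.0338) and Itgal (-0.66, 0.0403) lower as well. At 24 h, 3 of 9 were called, where 21.5% of all genes were: Itgax was higher with DMF (0.47, SE 0.13, adjusted p = 0.028), and Itga4 (-0.27, SE 0.08, 0.0437) and Selplg (-0.51, SE 0.09, 0.00482) were lower. The count was 1 of 9 without the MMF library numbered 1 or 3 or the DMF library numbered 3. The call of Itga4 was lost without any 1 of the 6 libraries (adjusted p = 0.0546 to 0.178), and that of Itgax without any MMF library or the DMF library numbered 3 (0.0506 to 0.118). Without the MMF library numbered 2, Itgal (0.31, adjusted p = 0.0128) and Itga5 (0.21, 0.0331) were called higher with DMF. The paired fit called 4 of 9 at 4 h, where the lowest correlation of same-numbered libraries was 0.0601. At 24 h it called 5 of 9, adding Itgal (0.20, adjusted p = 0.00708) and Itgb2 (-0.16, 0.0278), where 39.8% of all genes were called. Genes for which the fumarates did not differ past the threshold had intervals such as -0.10 to 0.22 for Icam1 and -0.07 to 0.21 for Cd44 at 24 h, and -0.94 to 0.23 for Itgal at 4 h. CBD was given at 6 µM, and no comparison with the fumarates was made.

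**Figure D4:**
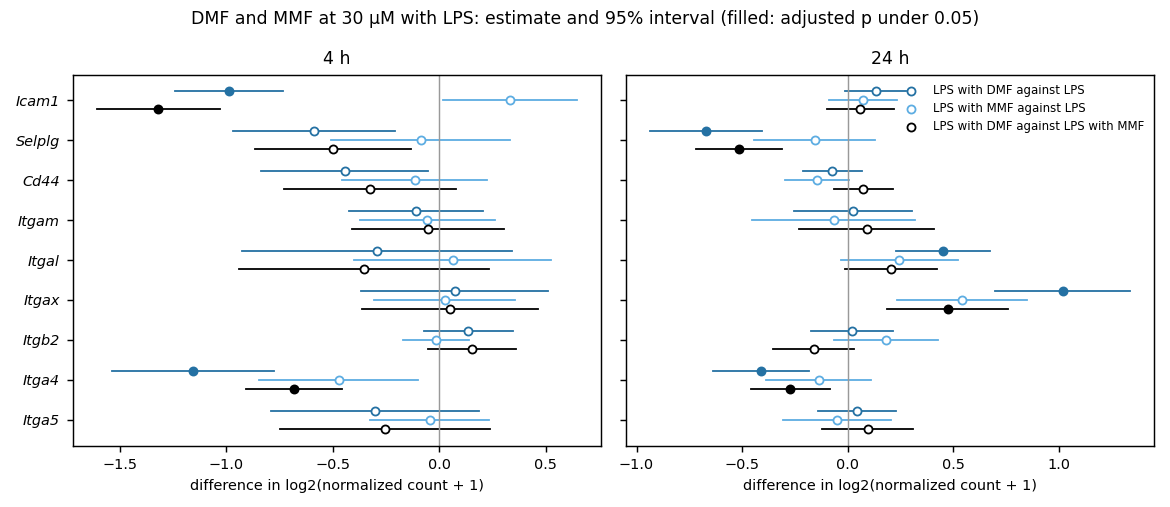
Difference in log2(normalized count + 1) with its 95% interval for DMF against LPS, MMF against LPS and DMF against MMF, with filled points for an adjusted p under 0.05. At 4 h Icam1 and Itga4 are the 2 genes with filled points for both DMF comparisons, and no MMF point is filled at either time.

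The drug groups were also compared with their vehicles. LPS with DMF differed from DMSO in 2 of 9 genes at 4 h (Itga4 lower and Itga5 higher, with 23.5% of all genes called) and in 7 of 9 at 24 h, all higher (40.2% called). Those 7 were Icam1, Itgam, Itgal, Itgax, Itgb2, Itga5 and Selplg, the largest being Itgal (1.29, SE 0.08, adjusted p = 1.24e-06). LPS with MMF differed from DMSO in 2 of 9 at 4 h, Icam1 (1.29, SE 0.12, adjusted p = 0.000166) and Itga5 (1.35, SE 0.15, 0.000468), with 8.22% called. At 24 h it differed in 6 of 9, all higher (22.4% called): Selplg (1.12), Itgal (1.08), Itga5 (0.72), Itgb2 (0.67), Itgam (0.66) and Icam1. Icam1 was the smallest of the 6 (0.35, adjusted p = 0.0463), and its call was lost without the DMSO library numbered 4 or 5 or any MMF library (0.0516 to 0.125) and in edgeR (0.0517). LPS with CBD differed from EtOH in 3 of 9 at 4 h, Icam1 (1.18, SE 0.06, adjusted p = 1.45e-05), Itga5 (1.32, SE 0.11, 0.000168) and Cd44 (0.55, SE 0.12, 0.0203), with 13.6% called. The call of Cd44 was lost without the EtOH library numbered 4 or 6 or the CBD library numbered 2 or 3 (adjusted p = 0.0522 to 0.0898). At 24 h it differed in 4 of 9, with Icam1, Itga4 and Cd44 lower and Selplg higher (50.5% called). The call of Selplg was lost without the CBD library numbered 1 or 2 or the EtOH library numbered 4 or 5 (adjusted p = 0.0654 to 0.103). That count was 1 of 9, Cd44, without the CBD library numbered 1 or the EtOH library numbered 5.

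The vehicles differed little in the fits without pairing, and more in the paired fit at 4 h. Their normalized counts did not overlap for Itga4 and Itgax at 4 h and for Cd44 at 24 h. DMSO against EtOH gave 0 of 9 calls in limma at 4 h (0% of all genes called) and 0 of 9 at 24 h (0.00854% called). At an unadjusted p under 0.05, 2 of 9 passed at 4 h and 1 of 9 at 24 h. edgeR called 0 of 9 at both times, and DESeq2 called 1 of 9 at 4 h and 0 of 9 at 24 h. The DESeq2 call was Itga4, lower in DMSO at 4 h (-0.33, adjusted p = 0.00287). The paired fit at 4 h called 3 of 9, all lower in DMSO: Itga4 (-0.33, adjusted p = 0.000289), Itgax (-0.38, 0.04) and Itga5 (-0.18, 0.0351), where 7.65% of all genes were called.

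The 24 h libraries were compared with those at 4 h within each treatment. Without LPS, 4 of 9 were called in DMSO (51.6% of all genes) and 5 of 9 in EtOH (58.6%). Itga4 was lower at 24 h in both (-0.60 and -0.91), and Itga5 (0.60 and 0.57) and Itgb2 (0.31 and 0.24) were higher in both. The Itgb2 call in EtOH was lost without the EtOH libraries numbered 4 or 6 at 4 h or 5 or 6 at 24 h (adjusted p = 0.0502 to 0.0808). Selplg was higher in DMSO (0.46), a call lost without the libraries numbered 4 or 5 at 4 h or 5 or 6 at 24 h (adjusted p = 0.0514 to 0.162). In EtOH, Icam1 was lower (-0.28), a call lost with all 36 libraries in 1 fit (adjusted p = 0.0591). Cd44 was higher (0.38), a call lost without the libraries numbered 4 or 6 at 4 h or 6 at 24 h (adjusted p = 0.0745 to 0.0855). With LPS, 7 of 9 were called (48.9% of all genes). Icam1 (-0.80, SE 0.10, adjusted p = 0.000236), Itga4 (-0.73) and Cd44 (-0.53) fell, and Itgam (0.89), Itgal (0.82), Itgb2 (0.69) and Selplg (1.21, SE 0.17, adjusted p = 0.000456) rose. With MMF the same 7 genes were called in the same directions (49.5% of all genes). With DMF, 6 of 9 were called, all higher at 24 h (58.8%): Icam1 (0.32), Itgam (1.02), Itgal (1.56), Itgax (0.55), Itgb2 (0.57) and Selplg (1.12). The Itgax call was lost without the DMF library numbered 1 at 4 h or 3 at 24 h (adjusted p = 0.0587 and 0.107), and without the library numbered 2 at 4 h Itga5 was called too (0.60, 0.000639). With CBD, 7 of 9 were called (63.2%). Icam1 (-1.78, SE 0.10, adjusted p = 1.3e-06), Itga4 (-1.24), Cd44 (-0.85) and Itga5 (-0.51) fell, while Selplg (0.65), Itgax (0.57) and Itgam (0.53) rose. The Itgam call was lost in DESeq2 (adjusted p = 0.0815) and without the CBD libraries numbered 1 or 3 at 4 h or 1 or 2 at 24 h (0.0653 to 0.114).

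**Figure D5:**
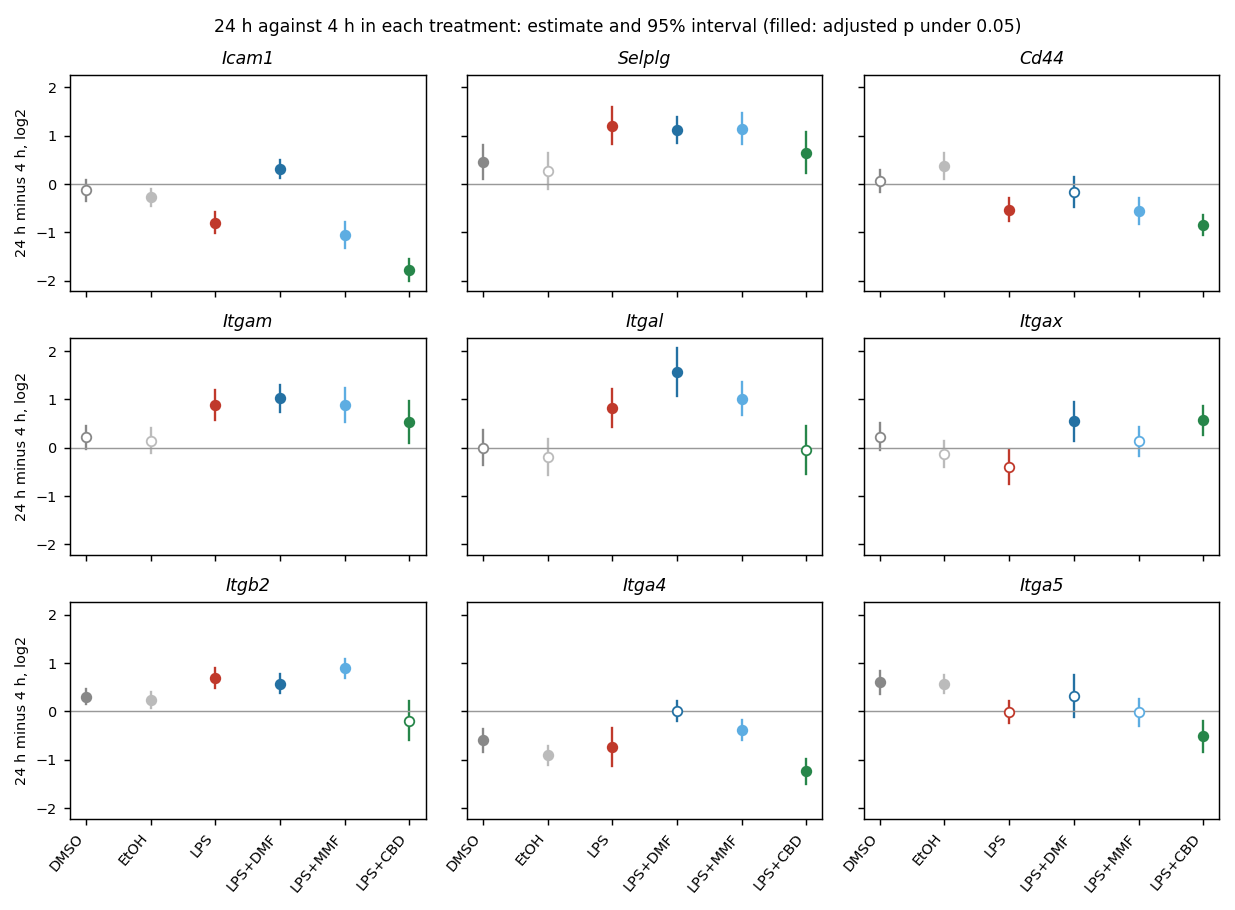
Difference of 24 h minus 4 h in log2(normalized count + 1) with its 95% interval in 6 treatments, with filled points for an adjusted p under 0.05. Icam1 falls with LPS (-0.80), MMF (-1.06) and CBD (-1.78) and rises with DMF (0.32).

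Whether a response differed between the times was tested as a difference of differences. For LPS against DMSO 3 of 9 genes were called (9.69% of all genes) and for LPS against EtOH 7 of 9 (9.26%). Icam1, Itga5 and Cd44 were in both, each with a response lower at 24 h than at 4 h. For DMF against LPS 3 of 9 were called (16.8%), for MMF 0 of 9 (0%) and for CBD 3 of 9 (32.9%). For MMF, 1 of 9 passed at an unadjusted p under 0.05, and edgeR and DESeq2 called 0 of 9. The paired fit called 5 of 9 for DMF (25.0% of all genes) and 9 of 9 for CBD (44.5%). The LPS against DMSO count was 1 of 9 without the DMSO library numbered 6 at 4 h or at 24 h, and 6 of 9 without the LPS library numbered 2 at 4 h. The LPS against EtOH count was 3 or 4 of 9 without any 1 of 10 libraries, 5 of 9 without the LPS library numbered 2 at 4 h and 7 of 9 without the LPS library numbered 1 at 24 h. The DMF count was 1 of 9 without the LPS library numbered 1 at 4 h and 6 of 9 without the DMF library numbered 2 at 4 h. The CBD count was 6 of 9 without the library numbered 2 of LPS at 4 h or of CBD at 24 h.

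Other genes of the adhesion machinery were counted in 5 lists. The shares of all genes called, beside which these counts stand, were 14.1% against DMSO and 10.2% against EtOH for LPS at 4 h, and 22.7% and 20.5% at 24 h. For DMF they were 11.1% at 4 h and 25.1% at 24 h, and for CBD at 24 h 48.7% (23.9% higher and 24.8% lower). Of 20 other integrin subunits 13 were tested with LPS, and 0 were higher against either vehicle at either time. Against DMSO 4 were lower at 4 h and 2 at 24 h, and against EtOH 2 were lower at each time. Itgb3, the beta chain of the vitronectin receptor, fell most at 24 h (-0.92 against DMSO, SE 0.13, adjusted p = 0.000508). DMF gave 0 calls in limma at 4 h (1 at an unadjusted p under 0.05, 0 in edgeR and 0 in DESeq2), and at 24 h 3 higher and 1 lower of 14, led by Itgad, a further CD11 chain (2.11, 47 reads against 10 in the 3 libraries). CBD gave 4 higher and 5 lower of 14 at 24 h (48.7% of all genes called), with Itgad highest (3.02, 95 reads against 10) and Itga8 lowest (-1.65). Of 21 other adhesion receptors, LPS gave 1 higher and 1 lower at 4 h and 3 higher and 2 lower at 24 h against DMSO, led at 24 h by Pecam1 (1.1, SE 0.19, adjusted p = 0.00205). Against EtOH limma called 0 of 15 at 4 h (4 at an unadjusted p under 0.05, 0 in edgeR and 0 in DESeq2), and 2 were higher and 4 lower at 24 h. DMF gave 2 higher at 4 h, and 3 higher and 3 lower at 24 h, with Pecam1 the lowest (-0.55). CBD gave 4 higher and 7 lower of 13 at 24 h (48.7% of all genes called).

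Of 15 selectins and enzymes that build selectin ligands, 10 were tested with LPS. LPS gave 2 higher and 0 lower against DMSO at 4 h (14.1% of all genes called), and 2 higher and 1 lower, Gcnt1 (-0.43, SE 0.07, adjusted p = 0.00633), against EtOH (10.2%). Sele, which encodes E-selectin, had 135 reads in the 3 LPS libraries, 8 in DMSO, 19 in EtOH and 5 with DMF (-4.25 for DMF against LPS, SE 0.53, adjusted p = 0.00134). DMF lowered 4 of 10 at 4 h and raised 0 (11.1% of all genes called), and at 24 h gave 2 higher and 3 lower of 11 (25.1%), with Selp (P-selectin) highest (2.64, 127 reads against 19). CBD gave 1 higher, Selp (3.65, 272 reads against 19), and 6 lower of 11 at 24 h (48.7%). St3gal6, a sialyltransferase that caps selectin ligands, rose with LPS (0.99 against EtOH at 24 h, SE 0.13, adjusted p = 0.00032) and fell with CBD (-1.96, SE 0.17, 2.66e-05). At 24 h LPS gave 3 higher and 0 lower against DMSO, and 2 higher and 1 lower against EtOH.

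Of 34 integrin activation and adaptor genes 28 were tested with LPS. LPS gave 8 higher and 1 lower against DMSO at 4 h, and 8 higher and 2 lower at 24 h, while against EtOH it gave 5 higher and 1 lower, then 8 higher and 2 lower. DMF gave 4 lower at 4 h. At 24 h DMF gave 3 higher and 2 lower of 28 (25.1% of all genes called), with the focal adhesion gene Zyx the highest (0.95), and CBD 9 higher and 8 lower of 27 (48.7%). Of 26 genes for CD44 partners, hyaluronan turnover and matrix ligands 16 were tested. LPS gave 6 higher and 0 lower against DMSO at 4 h (14.1% of all genes called), 7 and 2 at 24 h (22.7%), and against EtOH 4 and 0 (10.2%), then 6 and 2 (20.5%). Cemip2, which degrades hyaluronan at the cell surface, rose most at 4 h (1.47 against DMSO, SE 0.11, adjusted p = 0.000112), and at 24 h Mmp9, a matrix metalloproteinase, rose (1.96) and the hyaluronidase gene Hyal1 fell (-1.71). DMF gave 4 lower and 0 higher at 4 h and 2 higher and 4 lower at 24 h, with Mmp9 higher (0.96) and Cemip2 lower (-0.74). CBD gave 4 higher and 7 lower at 24 h, with Hyal1 higher (0.78) and Cemip2 lower (-1.25). MMF at either time and CBD at 4 h gave 0 calls in limma in each of the 5 lists. At an unadjusted p under 0.05 these lists held between 0 and 4 genes, edgeR called 0 in each, and DESeq2 called 1 gene in all, in the CD44 partner list with MMF at 4 h.

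Among 10088 protein-coding genes with a mean of at least 50 normalized counts, the closest in pattern to each member over the 36 libraries were found by Pearson correlation, which is given as a description, since all points share the same libraries and treatments. Icam1 was most like Sdc4 (r = 0.905), Poldip3 (0.864) and Tnip3 (0.864), and Itga5 was most like Traf1 (0.935), Mmp13 (0.931) and Il1b (0.918). Itgam was closest to Plekhb1 (0.917), Prkcd (0.915) and Akr1b8 (0.911), Itgal to Pitpnm1 (0.917), Tspoap1 (0.903) and Mcub (0.890), and Itgb2 to Prkar2b (0.922), Herc4 (0.897) and Arhgap31 (0.881). Selplg was closest to Tmem176a (0.927), Use1 (0.922) and Qsox1 (0.921). Weaker likeness was found for Itga4, with Relch (0.852), Dck (0.845) and Mrps2 (0.835), for Cd44, with Atp2b4 (0.819), Adss (0.777) and Ado (0.767), and for Itgax, with Yipf2 (0.763), Slc25a47 (0.737) and Lins1 (0.710). No member was among the 3 genes closest to another member.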

How the data were processed

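RNA was sequenced from 36 BV-2 libraries, 3 in each of 12 groups, taken from the labels. Per the submitters' processing notes, reads were handled with FastQC 0.12.1, cutadapt 4.4, Trimmomatic 0.39, HISAT2 2.2.1, HTSeq 2.0.3, R 4.3.1 and DESeq2 1.40.2 on GRCm39. The deposited values were a signal per gene and library that the authors made by dividing HTSeq read counts by DESeq2 size factors, separately for each of 30 tables. Whether strand was used in counting is not given in the sources used here. The tables also hold the authors' own comparisons (fold changes and p-values), which were not used. The tables that set CBD against a fumarate served only to recover reads.

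Values in 155 of 180 library columns were whole multiples of 1 read, and 100% of 2695078 values came out whole within 0.01 reads. Reads recovered from different tables differed in 0 of 2020699 values compared. Depth was 14110424 to 26676607 reads per library. In some groups, such as Selplg with DMF and Icam1 with LPS at 24 h, the spread between libraries was no larger than counting error. No 2 libraries of a group agreed within sampling noise.

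Differences were tested with limma 3.58.1 in R 4.3.3 on log2(normalized count + 1) within each pair's own table, for genes at 10 or more normalized counts in at least 3 of 6 libraries (6 of 12 for differences between times), with Benjamini-Hochberg adjustment over all genes tested and a threshold of 0.05. Fold changes are on that scale, which understates low genes. edgeR 4.0.16 (quasi-likelihood) and DESeq2 1.42.0 were run on the recovered reads. Printed levels are recovered reads divided by 1 joint set of size factors. Other alternatives were a pseudocount of 8, no filter, library totals, all 36 libraries in 1 fit, each library left out and a replicate block. Same-numbered libraries deviated together (every correlation over 0.1, from 0.127 to 0.732) in 10 of 16 comparisons that share numbers, a pairing read from the data. The scripts were tested on simulated data.

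The members and the gene lists were chosen with earlier results of these data known. All 10 members are named, and of each list the gene with the largest rise and the largest fall in a comparison. 1 such gene is not reported here.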

Additional observations from a re-analysis of the deposited data

Results flagged for a closer look

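Differences of a response between 24 h and 4 h that passed the threshold (adjusted p under 0.05, limma) are listed as the log2 difference at 24 h minus that at 4 h. For LPS against DMSO these were Icam1 (-0.69), Itga5 (-0.64) and Cd44 (-0.61). The calls of Itga5 and Cd44 were each lost without 6 of the 12 libraries, one at a time. For LPS against EtOH, Icam1 (-0.54), Itga5 (-0.60) and Cd44 (-0.93) were lower at 24 h, and Itgam (0.73), Itgal (1.01), Itgb2 (0.44) and Selplg (0.92) were higher. The calls of Itgam, Itgal, Itgb2 and Selplg were lost without 9, 8, 10 and 8 of the 12 libraries in that order, and those of Icam1 and Itga5 without 2 each (adjusted p = 0.0510 to 0.0528).

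The log2 difference of DMF from LPS was higher at 24 h than at 4 h for Icam1 (1.12), Itgax (0.94) and Itga4 (0.74). Icam1 was called lower with DMF at 4 h and was not called at 24 h. Itga4 was lower with DMF at both times, by less at 24 h. Its call between the times was lost without 7 of the 12 libraries. The call of Itgax was lost without the LPS library numbered 1 at 4 h or the DMF library numbered 3 at 24 h (adjusted p = 0.0503 to 0.0640). The log2 difference of CBD from LPS was lower at 24 h than at 4 h for Icam1 (-0.97) and Itgb2 (-0.88) and higher for Itgax (0.96). All of these comparisons use the same LPS libraries.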

How the results depend on the processing

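Of 279 tests of 9 members in 31 comparisons, 114 passed the threshold, and 82 of these did so under every alternative run. A pseudocount of 8 changed no call. The number of members called moved by over 1.5 times in these cases. With the replicate block (paired fit) it was 4 for DMF and 1 for MMF against LPS at 4 h, 2 for MMF at 24 h, 4 and 5 for DMF against MMF at 4 h and 24 h, 3 for DMSO against EtOH at 4 h, and 5 and 9 for the differences between times of DMF and CBD. For MMF against LPS at 4 h the correlations of same-numbered libraries ranged from 0.0836 to 0.551, and for DMF against MMF at 4 h from 0.0601 to 0.601. The lowest of each was under 0.1. With all 36 libraries in 1 fit it was 4 for DMF at 4 h, 3 for 24 h against 4 h in EtOH and 3 for the difference between times of LPS against EtOH, which was also 3 with no filter on low values. With library totals the differences between times gave 6 for LPS against DMSO and 5 for CBD. DESeq2 gave 5 for LPS against DMSO between times and 1 for DMSO against EtOH at 4 h. The causes were not tested.

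Leaving out 1 library gave 2 to 4 members called for DMF and 0 to 1 for MMF against LPS at 4 h, 2 to 5 and 1 to 3 for DMF against MMF at 4 h and 24 h, 1 to 5 for CBD against EtOH at 24 h, and 3 to 6 for 24 h against 4 h in EtOH. For the differences between times the ranges were 1 to 6 for LPS against DMSO, 3 to 7 for LPS against EtOH, 1 to 6 for DMF and 3 to 6 for CBD. Itgal at 24 h against 4 h in DMSO was -0.00 and not called, ranged from -0.13 to 0.24 without 1 library, and was called higher (adjusted p = 0.0305) without the DMSO library numbered 5 at 4 h. Vcam1 could not be tested at this depth.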
